A study of Mus musculus with 12 samples.

Results

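The genes described here are 6 markers of the hippocampal subfields CA2 and CA3: Amigo2, Rgs14, Pcp4, Cacng5, Map3k15 and Bok. They were taken by name as listed subfield markers, with earlier results of these data known, and all 6 were found among the 55471 gene IDs of the count table. They were followed as a measure of what a dissection around ventral CA1 carried. CA2 is a short stretch of pyramidal neurons between CA1 and CA3, known for its resistance to ordinary long-term potentiation at the Schaffer collateral synapse and for its role in social memory. CA3 pyramidal neurons receive the mossy fibres of the dentate gyrus and send the Schaffer collaterals to CA1. Amigo2, Rgs14, Pcp4, Cacng5 and Map3k15 are used as CA2 markers, and Bok is used as a CA3 marker. CA1 neurons and other cells are not strictly devoid of these transcripts, so a marker's level is not a cell count.

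The tissue came from wild-type male C57BL/6J mice aged 5 to 7 weeks, which carried no transgene or deletion. Horizontal slices of 400 µm were kept for 3 h or longer before recording, frozen 30 min after stimulation, and an area of 1 mm2 around the electrodes in ventral CA1 was cut out. Each library pooled 6 slices, and each mouse gave 4 slices, 1 to each group, so libraries of different groups can share mice. In the 3 Control libraries, electrodes were in place and only basal stimulation was given. The 3 STET libraries followed strong tetanization with 3 trains of 100 pulses at 100 Hz, a protocol for late long-term potentiation. The 3 STET_S100 and 3 STET_S200 libraries had the same tetanization together with stimulation of the basolateral amygdala, labelled 100 Hz and 200 Hz. The STET_S200 label also puts 100 Hz in brackets, so its rate is given in 2 conflicting ways. The labels name pooled subjects but not whether the pools of a group are separate sets of mice, and the p-values measure the spread between these libraries only.

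Each library held 36.3 to 52.8 M counted reads. Libraries of 1 group were no duplicates of each other: for the 12 such pairs, chi-square divided by its degrees of freedom was 5.06 or more over the tested genes. The markers of the labelled tissue were abundant. Among CA1 genes, Mpped1 averaged 295 and Fibcd1 279 TPM (transcripts scaled to library and gene length). Libraries did stand apart in RNA of other tissues. The summed level of 11 choroid plexus markers was 385 to 1957 CPM (counts scaled to the library total) in Control, 458 to 3399 in STET, 117 to 4231 in STET_S100 and 86.6 to 161 in STET_S200. Its main gene Ttr, a thyroid hormone carrier, was lowest at 1.73 CPM and was at 0 in no library. Control 3, STET 3, STET_S100 1, STET_S200 2 and STET_S200 3 also held RNA of tissue outside the brain, with Fabp4, a fat cell gene, at 7.08 to 8.46 CPM against 0.0479 to 0.275 CPM in the other 7. Those 7 were not free of other transcripts from outside the brain. Umod was at 0.718 CPM in Control 1 and 0.382 in Control 2, and at 0 in the stimulated libraries among them. Slc34a1 was at 0.359 and 0.491 CPM in Control 1 and Control 2, and at 0.0239 to 0.0951 in those stimulated libraries. Within the 7, this RNA and stimulation cannot be told apart. The sum of 10 dentate gyrus markers varied 2.10-fold, from 118 to 247 CPM. Results that rest on these libraries are given with the values for the 7 libraries without Fabp4 above 1 CPM, or with a choroid score in the fit.

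All 6 genes were detected in every library. On the scale per length, Rgs14 was highest, with a mean of 62.8 TPM and a range of 56.7 to 70.3 over the 12 libraries. Bok followed at 28.6 TPM with a range of 23.1 to 35.5. These ranges do not overlap, and neither do those of Bok and Amigo2, which averaged 11.7 TPM with a range of 7.92 to 15.9. Cacng5 averaged 6.87 TPM with a range of 5.24 to 7.95, which touches that of Amigo2 at one end. Pcp4 averaged 4.18 TPM with a range of 2.13 to 6.03, and Map3k15 averaged 2.67 TPM with a range of 1.80 to 3.50. The Pcp4 value may be too low, because part of its exon length is shared with another gene ID, as given below. The neighbours Cacng5 and Pcp4, and Pcp4 and Map3k15, overlapped in range. The summed level of the 6 genes lay between 99.6 and 119 CPM, a 1.20-fold range, beside a sum of 1218 to 1465 CPM for 10 CA1 markers. In a pooled dissection, fewer cells of a subfield and less RNA per cell cannot be told apart.

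**Figure D1:**
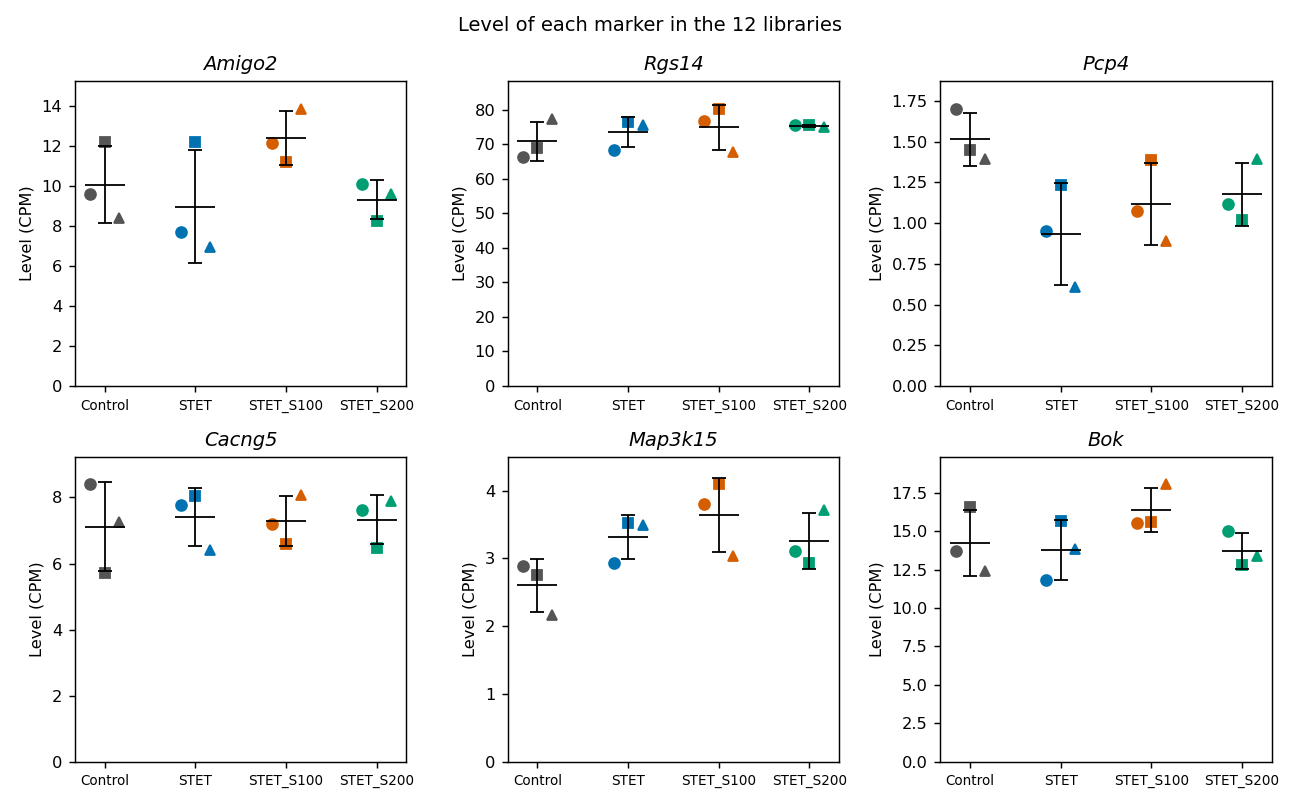
Level of each of the 6 genes (CPM, axis from 0) in the 12 libraries; circles, squares and triangles are replicates 1, 2 and 3, and the bars are the group mean ± SD (n = 3). Map3k15 was lowest in the 3 Control libraries, Pcp4 lay above STET and STET_S100 in Control, and Rgs14 stayed between 66.2 and 80.2 CPM.

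Rgs14 encodes a scaffold that turns off Gi and Go proteins and restrains potentiation in CA2 neurons. Its level was 66.2, 69.0 and 77.2 CPM in Control, 68.4, 76.5 and 75.5 in STET, 76.7, 80.2 and 67.6 in STET_S100, and 75.5, 75.5 and 74.9 in STET_S200. The 4 groups overlapped, and the highest library was 1.21 times the lowest. Group means were 70.8 ± 5.73, 73.5 ± 4.402, 74.8 ± 6.49 and 75.3 ± 0.339 CPM (SD, n = 3). The mean of the 3 stimulated groups was 0.08 ± 0.05 (SE) above Control on the log2 scale, with a 95% interval of -0.04 to 0.19. Of the 6 genes, it gave the narrowest interval. With the choroid score in the fit, STET_S200 against Control went from 0.09 ± 0.07 to 0.20 ± 0.07 (unadjusted p 0.015, adjusted p 0.999 by edgeR). The r of Rgs14 with the choroid score was 0.23 over 12 libraries and 0.60 within groups, and the part of choroid RNA in its level was not tested.

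Pcp4 encodes a small protein that speeds the exchange of calcium on calmodulin and is a standard CA2 label. It had the fewest reads, 28 to 90 per library, and counting alone gives a coefficient of variation of 13.9% at that depth. Its level was 1.70, 1.45 and 1.39 CPM in Control and 0.953, 1.24 and 0.607 in STET. It was 1.08, 1.39 and 0.889 CPM in STET_S100 and 1.12, 1.02 and 1.39 in STET_S200. Every STET library lay below every Control library. So did STET_S100, narrowly, its nearest value being 1.388 CPM against 1.394, and STET_S200 overlapped Control. Against Control, the log2 difference was -0.71 ± 0.25 in STET (95% interval -1.23 to -0.19), -0.45 ± 0.24 in STET_S100 and -0.37 ± 0.24 in STET_S200. The interval for STET excluded 0 only before adjustment: the unadjusted p in the edgeR quasi-likelihood test was 0.0108 and the adjusted p was 1. In the 7 libraries without Fabp4 the STET difference was -0.53 ± 0.28. With the choroid score in the fit, the STET_S200 difference was -0.04 ± 0.29; the low choroid level of STET_S200 and its stimulation cannot be told apart. In the GENCODE M21 annotation, 23.7% of the Pcp4 exon length (243 of 1026 bp) also belongs to an Igsf5 ID on the same strand, which had a count of 0 in all 12 libraries. The counting rule for shared reads is not given in the sources, and how many Pcp4 reads it set aside, if any, was not tested.

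Map3k15 encodes a stress-responsive kinase at the head of the p38 and JNK pathways. Its level was 2.89, 2.76 and 2.16 CPM in Control and 2.94, 3.53 and 3.49 in STET. It was 3.81, 4.09 and 3.04 CPM in STET_S100 and 3.12, 2.93 and 3.72 in STET_S200. All 9 stimulated libraries lay above the 3 Control libraries, by a gap as small as that between 2.89 and 2.93 CPM. Of all genes tested, 0.549% (107 of 19492) showed this arrangement. The log2 difference from Control was 0.34 ± 0.16 in STET (95% interval 0.01 to 0.68), 0.48 ± 0.16 in STET_S100 (0.15 to 0.81) and 0.31 ± 0.16 in STET_S200 (-0.02 to 0.65). For the mean of the stimulated groups it was 0.38 ± 0.13, or 1.30-fold, with an unadjusted p of 0.0107 and an adjusted p of 0.845 by edgeR's quasi-likelihood test. Over the 6 genes and the 7 comparisons, the smallest unadjusted p was 0.00744, for Map3k15 in STET_S100 against Control, and its adjusted p was 0.902.

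The size of the Map3k15 differences depended on the libraries and terms in the fit. In the 7 libraries without Fabp4, of which 1 is a STET_S200 library assumed to vary like the rest, the log2 difference was 0.20 in STET, 0.33 in STET_S100 and 0.14 in STET_S200. With the choroid score in the fit, STET_S200 against Control was 0.57. Within groups, Map3k15 followed the choroid score with r = 0.75, against 0.35 over all 12 libraries, and the part of choroid RNA in its level was not tested. Its exons share 603 bp, 13.9% of their length, with the opposite-strand gene Pdha1, which encodes a subunit of pyruvate dehydrogenase and averaged 282 CPM. Pdha1 differed from Control by 0.03 ± 0.03 on the log2 scale over the stimulated groups, and its r with Map3k15 was 0.06.

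Amigo2 encodes a leucine-rich adhesion protein of the neuronal surface. Its level was 9.604, 12.2 and 8.42 CPM in Control and 7.72, 12.2 and 6.96 in STET. It was 12.2, 11.2 and 13.9 CPM in STET_S100 and 10.1, 8.24 and 9.62 in STET_S200. STET_S200 lay wholly below STET_S100, and all other pairs of groups overlapped. The log2 difference was 0.47 ± 0.20 for STET_S100 against STET (95% interval 0.03 to 0.92; unadjusted p 0.0402, adjusted p 1 by edgeR) and -0.42 ± 0.20 for STET_S200 against STET_S100. The first of these was 0.32 without STET 3 and 0.76 without STET 2. The highest library was 1.99 times the lowest. The standard deviation of its log2 level, 0.31, was larger than that of 97.3% of the 1890 genes within 0.5 log2 units of its level. Of its variance, 41.7% lay between groups, against a median of 25.3% over all genes tested. This share was 49.3% for Pcp4 and 55.4% for Map3k15.

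Bok encodes a pore-forming member of the BCL-2 family and marks CA3 pyramidal neurons. Its level was 13.7, 16.6 and 12.4 CPM in Control and 11.8, 15.7 and 13.8 in STET. It was 15.5, 15.6 and 18.0 CPM in STET_S100 and 15.03, 12.8 and 13.4 in STET_S200. As with Amigo2, all STET_S200 libraries lay below those of STET_S100 and the other pairs of groups overlapped. STET_S200 was -0.26 ± 0.12 from STET_S100 on the log2 scale (95% interval -0.51 to -0.01), with an unadjusted p of 0.0457 and an adjusted p of 0.959 by edgeR's quasi-likelihood test. STET_S100 was 0.25 ± 0.12 above STET, with an unadjusted p of 0.0467, and this was 0.15 without STET 1 and 0.36 without STET 2. With the choroid score, which was low in every STET_S200 library, the difference between STET_S200 and STET_S100 was -0.20 for Bok and -0.28 for Amigo2. In the 7 libraries without Fabp4 it was -0.16 and -0.31, and STET_S100 against STET was 0.29 and 0.33.

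Cacng5 encodes a transmembrane regulatory protein of AMPA receptors, gamma-5, of the less common second type. Its level was 8.39, 5.70 and 7.24 CPM in Control and 7.76, 8.06 and 6.42 in STET. It was 7.20, 6.58 and 8.08 CPM in STET_S100 and 7.61, 6.48 and 7.90 in STET_S200. Control alone spanned the whole range, and 2.66% of the variance in the log2 level lay between groups, against a median of 25.3% over all genes tested. The stimulated groups differed from Control by 0.05, 0.03 and 0.04 on the log2 scale, each ± 0.14, and their mean by 0.04 ± 0.11 with a 95% interval of -0.19 to 0.27.

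**Figure D2:**
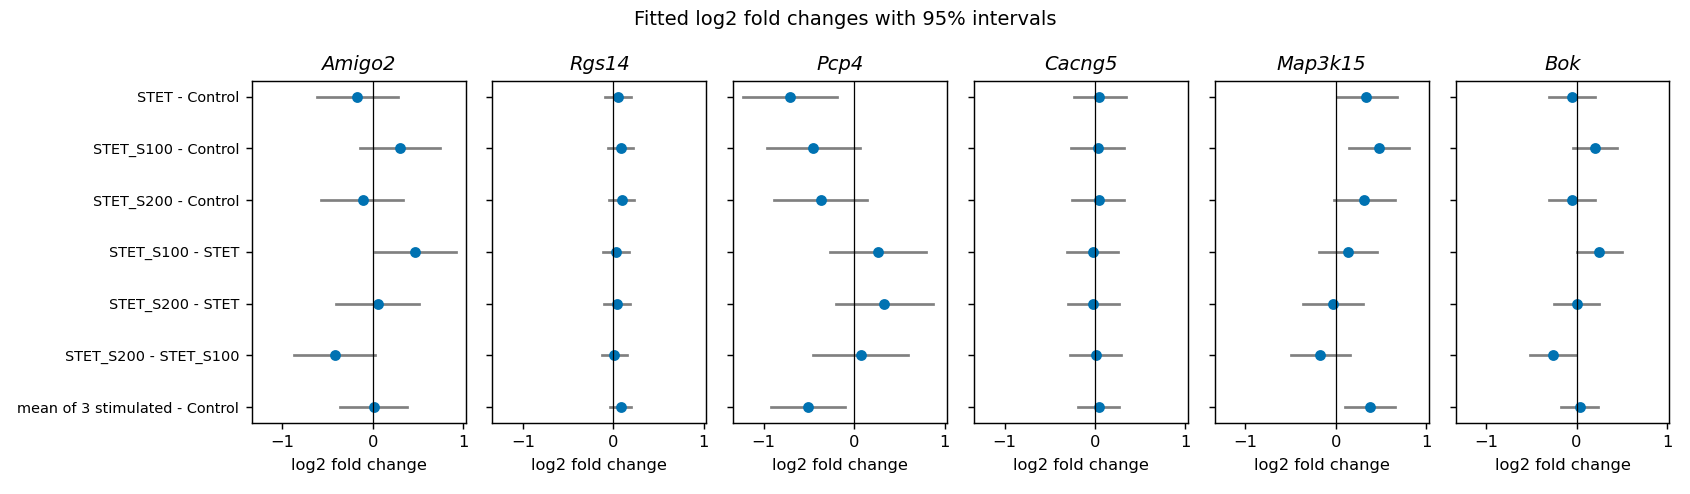
Fitted log2 fold change (points) with 95% interval (lines) of each gene in the 7 comparisons, by edgeR's quasi-likelihood fit of all 12 libraries. The narrowest intervals belong to Rgs14; Map3k15 lies to the right of 0 in the 4 comparisons with Control and Pcp4 to the left, and no adjusted p was below 0.828.

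By edgeR's quasi-likelihood test with Benjamini-Hochberg adjustment over 19492 genes, 0 of the 6 genes passed an adjusted p of 0.05 in any of the 7 comparisons, and the share of all genes that passed was 0% in each. DESeq2 and limma-voom also called 0 of the 6. At an unadjusted p under 0.05, STET against Control held 2 of the 6 (Pcp4 and Map3k15), beside 3.50% of all genes. STET_S100 against Control held 1 (Map3k15), beside 5.16%, and STET_S200 against Control held 0, beside 5.92%. STET_S100 against STET held 2 (Amigo2 and Bok), beside 3.16%. STET_S200 held 0 against STET, beside 4.56%, and 1 (Bok) against STET_S100, beside 5.20%. The mean of the stimulated groups held 2 (Pcp4 and Map3k15), beside 5.47%. The median log2 difference of the 6 genes ran from -0.08 for STET_S200 against STET_S100 to 0.19 for STET_S100 against STET, with medians of all genes between 0.000 and 0.004. The comparisons with Control share the same 3 Control libraries.

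Groups that did not overlap were 1 gene higher (Map3k15) and 1 lower (Pcp4) in STET against Control, beside 4.69% and 4.20% of all genes. STET_S100 against Control had the same 2 genes in the same directions, beside 5.19% and 4.93%. STET_S200 against Control had Map3k15 higher, beside 5.73%. STET_S200 lay below STET_S100 for Amigo2 and Bok, beside 4.77%.

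Of the 15 pairs of these genes, 1 stood out over the 12 libraries. Amigo2 and Bok varied together over the libraries, with Pearson's r of 0.88 (permutation p = 0.00028) and Spearman's rho of 0.87 (permutation p = 0.00059). Adjusted over all 735 relations computed, which are the 15 pairs and the 6 genes against 120 genes of the marker lists, these became 0.0686 and 0.0968. Without STET 3 and STET_S100 3, the libraries farthest from the median of Amigo2, r was 0.97. It was 0.82 for deviations from the group means and 0.98 in the 7 libraries without Fabp4. STET_S100 3 was highest and Control 3, STET 1 and STET_S200 2 were among the lowest 4 in both genes. STET 3 was the lowest in Amigo2 and the seventh highest in Bok.

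**Figure D3:**
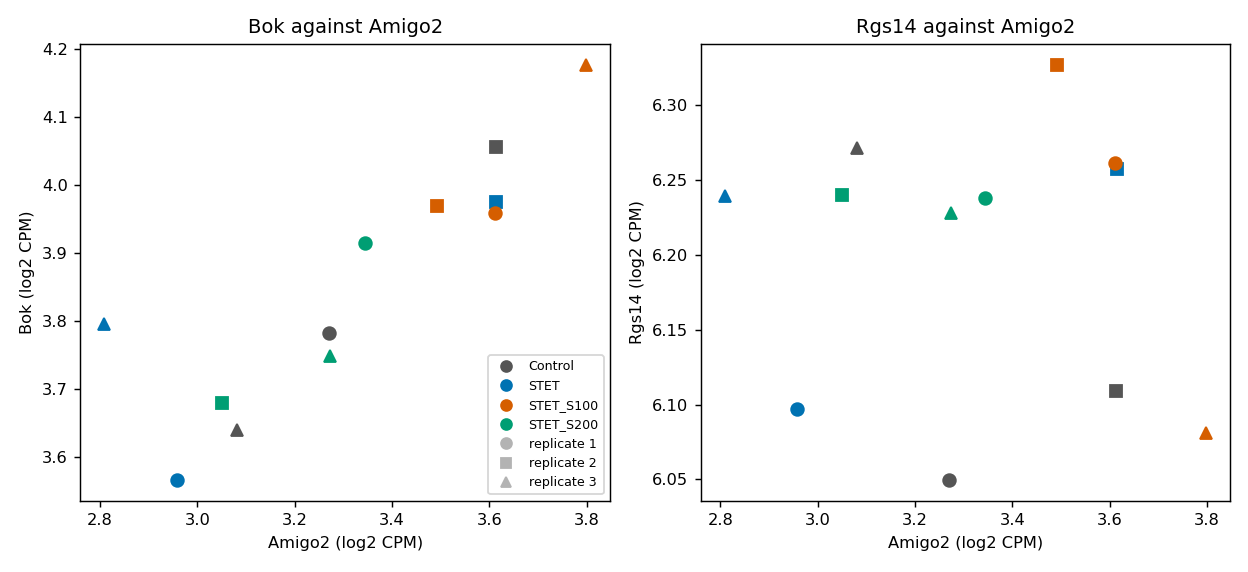
Bok (left) and Rgs14 (right) against Amigo2, in log2 CPM, with 1 point per library; colours are groups and shapes are replicates. Bok follows Amigo2 with r = 0.88, and Rgs14 does not, with r = -0.10.

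The other CA2 markers among the 6 genes did not follow Amigo2. The r of Amigo2 was -0.10 with Rgs14, 0.35 with Pcp4, 0.13 with Cacng5 and 0.26 with Map3k15. The median over the 15 pairs was 0.03, with 9 pairs above 0 and 6 below. The next highest r was 0.38, for Rgs14 and Map3k15 (permutation p = 0.218), and it was 0.88 in the 7 libraries without Fabp4. The 6 genes ordered the libraries differently: Control 1, for example, was the highest of 12 in Pcp4 and Cacng5 and the lowest in Rgs14.

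The promoters of Amigo2 and Bok are shown because these 2 genes moved together. Each sequence is from RefSeq (GRCm38.p6), 5′ to 3′ on the gene's strand, from 250 bases before the start to 50 after it. Capitals mark GC boxes, GGGCGG on either strand, the element bound by Sp1. Amigo2 lies at chr15:97247238-97247537 on the minus strand and Bok at chr1:93685325-93685624 on the plus strand.
Amigo2: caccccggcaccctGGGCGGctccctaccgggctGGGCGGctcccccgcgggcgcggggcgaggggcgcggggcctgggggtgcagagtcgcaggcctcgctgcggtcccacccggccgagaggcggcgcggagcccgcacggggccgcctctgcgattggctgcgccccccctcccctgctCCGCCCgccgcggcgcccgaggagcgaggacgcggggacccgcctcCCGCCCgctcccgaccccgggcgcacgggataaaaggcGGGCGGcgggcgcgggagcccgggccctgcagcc
Bok: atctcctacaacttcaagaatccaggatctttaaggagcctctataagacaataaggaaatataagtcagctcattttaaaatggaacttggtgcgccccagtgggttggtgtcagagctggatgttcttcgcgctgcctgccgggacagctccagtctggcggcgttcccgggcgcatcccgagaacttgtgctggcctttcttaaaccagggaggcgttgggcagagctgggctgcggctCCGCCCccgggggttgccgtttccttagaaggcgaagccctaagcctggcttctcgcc
The Amigo2 window has a GC content of 83.3% and 5 GC boxes, and the Bok window has a GC content of 56.3% and 1. A GC box is present in 35.7% of the 32851 promoter windows of the same length. TATAAA, searched on both strands and found in 13.6% of all windows, is in neither. CCAAT on either strand is in the Amigo2 window once and not in that of Bok, and 37.4% of all windows hold it. Promoter windows were matched for 4 of the 6 genes: Amigo2, Bok, Pcp4 and Cacng5. The Pcp4 window has no GC box, and of the 2 Cacng5 windows 1 has 2 GC boxes and 1 has none.

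A list of 9 other CA2 markers was read beside the members. Of 8 that passed the low-count filter, 0 passed the adjusted test in any comparison. Avpr1b, the vasopressin 1b receptor of CA2, was not tested, at a mean of 0.0643 CPM. The highest per length were Necab2, a calcium-binding protein, at 131 TPM, the mineralocorticoid receptor Nr3c2 at 82.2, the phosphatase Ptpn5 (STEP) at 66.5 and the protease Prss23 at 11.95. The sum of the list ran from 335 to 388 CPM, a 1.16-fold range. Sostdc1, a secreted inhibitor of BMP and Wnt signals, is on the choroid list as well and ran from 1.26 to 16.4 CPM.

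Necab2 was the list gene closest to the pair. Its r was 0.87 with Amigo2 (permutation p = 0.00053, adjusted 0.0779; rho 0.86) and 0.86 with Bok (permutation p = 0.00043, adjusted 0.0779; rho 0.85). Within groups these were 0.86 and 0.83, and without the 2 libraries farthest from the median 0.83 and 0.76. Necab2 was 81.2, 80.8 and 84.6 CPM in STET_S100, and 68.7 to 79.9 CPM in STET. Its log2 difference between these groups was 0.17 ± 0.06, with an unadjusted p of 0.0127 by edgeR. In this comparison 2 of the 8 tested genes of the list had an unadjusted p under 0.05, beside 3.16% of all genes. After adjustment, 0 of the 8 passed. Ptpn5 did not follow Amigo2, with r = -0.18. Prss23 had r = 0.53 with Amigo2, 0.62 with Rgs14 and 0.65 with Map3k15 (the last with permutation p = 0.0199, adjusted 0.457).

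Of 5 other CA3 markers, all tested, 0 passed the adjusted test, and their sum ran from 67.6 to 81.7 CPM. Grik4, a kainate receptor subunit of mossy fibre synapses, averaged 22.8 TPM, the adhesion protein Nectin3 7.60, the cadherin Cdh24 6.49 and cochlin, Coch, 3.74. Grik4 had r = 0.78 with Amigo2 (permutation p = 0.00288, adjusted 0.192) and 0.70 with Bok. Nectin3 had r = 0.70 with Amigo2 and 0.76 with Bok (permutation p = 0.00449, adjusted 0.275). The other named CA3 genes went the other way with Amigo2, at r = -0.35 for Cdh24 and -0.49 for Coch. All 5 had a lower fitted level in STET_S200 than in STET_S100, with a median log2 difference of -0.16, none of them below an unadjusted p of 0.05. In the same comparison all 10 dentate, all 11 choroid and all 5 endothelial markers were lower as well, with medians of -0.29, -5.57 and -0.11, while 50.7% of all genes were higher.

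**Figure D4:**
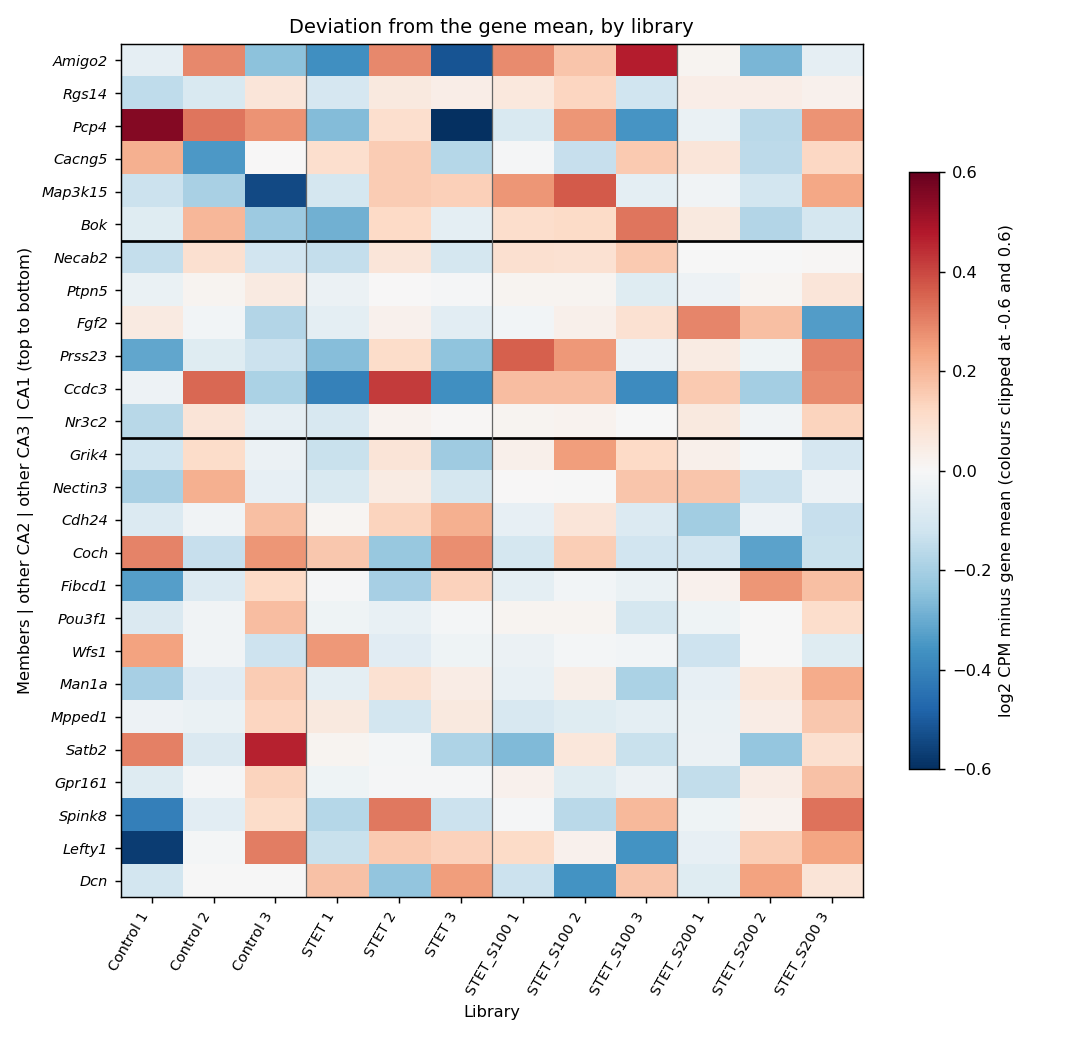
Deviation of log2 CPM from the gene's mean in each of the 12 libraries (red above, blue below; colours clipped at 0.6) for the 6 genes and the CA2, CA3 and CA1 list genes with a mean log2 CPM of at least 0, without Sostdc1. The rows of Amigo2 and Bok share their reds in Control 2, STET 2 and STET_S100, with Necab2 following them more faintly; the row of Rgs14 is the palest of the 6.

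Relations with markers of other regions and cell types differed from member to member. Il16, a cytokine precursor on the dentate list, followed Amigo2 with r = 0.92 (permutation p = 1e-04, adjusted 0.0551) and rho = 0.93 (adjusted 0.022), the 1 relation of 735 below an adjusted 0.05 by rho. With Bok its r was 0.80. By r, 0 relations were below an adjusted 0.05, and 59 had an unadjusted p under 0.05. The score of the 4 thalamic markers had r = 0.55 with Amigo2 and 0.61 with Bok, and its gene Lhx9 had 0.79 with each. The other thalamic genes had lower r with Amigo2, at 0.25 for Tcf7l2, -0.01 for Prkcd and 0.31 for Rora. The score of the dentate list had r = 0.46 with Amigo2 and 0.51 with Bok, and that of the CA1 list -0.48 and -0.56. Dentate genes other than Il16 had r of 0.23 to 0.59 with Amigo2. Mpped1, a CA1 marker, had r = -0.72 with Amigo2 and -0.75 with Bok. With Rgs14 the CA1 markers were divided: r was 0.80 for Lefty1 and 0.73 for Man1a, which were 0.55 and 0.45 without the 2 libraries farthest from its median, but -0.68 for Wfs1 and -0.37 for Dcn, and 0.41 for the score of the list. Cacng5 followed the scores of several lists. Its r was 0.69 for 8 cortical layer markers (0.86 within groups) and 0.64 for oligodendrocyte markers (0.68). It was 0.58 for striatal and amygdalar markers (0.70) and 0.47 for subicular markers (0.66). Single genes of a list differed. On the cortical list, r was 0.68 for Tle4 and 0.07 for Rorb. On the striatal and amygdalar list, it was 0.62 for Drd1 and -0.3 for Ppp1r1b. How far such tissue or cells set the members' levels was not tested.

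Over 14883 tested genes with a mean log2 CPM of at least 0, the patterns most like each member's were found, as a description. They were ranked by r over the 12 libraries. Unnamed genes, predicted genes and pseudogenes were passed over in taking the closest 3. For Amigo2 these were Asph (0.94), Il16 (0.92) and Lsm11 (0.92). Bok was closest to St18 (0.90), Amigo2 (0.88) and Tbc1d8b (0.87). Rgs14 was closest to Tbata, Diexf and Col27a1, each at 0.86, and Cacng5 to Ppih (0.87), Relt and Pdss2 (both 0.85). Pcp4 was closest to Nmbr (0.87), Sgf29 and Ppp1r14b (both 0.86), and Map3k15 to March8 (0.84), Ppp2r1b and Cep126 (both 0.83). Of the 6, Bok had another member among its closest 3.

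Molecules that the members act on were read beside them. The list of 12 partners includes the G protein subunits regulated by Rgs14, the kinases Camk2a and Camk2b and the AMPA receptor subunits that Cacng5 joins. None of the 12 passed the adjusted test, and their log2 differences for the mean of the stimulated groups lay between -0.06 and 0.05. Camk2a, a kinase of synaptic potentiation, averaged 1693 TPM, and the AMPA receptor subunit Gria1 574 TPM.

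The 14 relatives of the members in their gene families also gave 0 adjusted calls in 7 comparisons. The AMPA receptor regulators Cacng8 and Cacng7 averaged 213 and 188 TPM, against 6.87 TPM for Cacng5. Pcp4l1, the close relative of Pcp4, averaged 78.3 TPM against 4.18, and Amigo1 55.9 TPM against 11.7 for Amigo2. The Pcp4 value leaves out any reads set aside for the exons shared with Igsf5. Over the 3 stimulated groups together, 3 of the 14 relatives had an unadjusted p under 0.05 by edgeR, beside 5.47% of all genes. They were Rgs12 (-0.12 ± 0.04 on the log2 scale), Cacng3 (-0.14 ± 0.05) and Bak1 (0.19 ± 0.07), named after their values were seen. Bak1 is, like Bok, a pore-forming BCL-2 protein. Each of the other comparisons held 0 to 2 such relatives. Over the stimulated groups, Pcp4l1 differed from Control by 0.19 ± 0.18 on the log2 scale, with a sign opposite to that of Pcp4. Its level was 43.4, 43.05 and 47.9 CPM in STET 2, STET_S100 1 and STET_S100 2, the libraries highest in the choroid sum. In the rest it was 26.6 to 33.0 CPM. The part of choroid RNA in the Pcp4l1 level was not tested. Cacng4 ran against Rgs14, with r = -0.92 (permutation p = 0.00015, adjusted 0.0551; -0.93 within groups).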

How the data were processed

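The authors deposited raw read counts per Ensembl gene ID, 1 column per library. Per the submitters' processing notes, the tools were HTSeq 0.11.2, STAR 2.7.1a, Trimmomatic 0.39 and, with no role named, R 4.0.2 and limma; no source used here gives the build, annotation or strand setting. Symbols, lengths and exon overlaps came from GENCODE M21 (55144 IDs with a symbol, 55230 with a length), and no gene coordinates are printed from it. TPM was computed from the counts and M21 exon lengths.

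Counts were scaled by TMM and tested with edgeR 4.0.16 (quasi-likelihood F test, robust; R 4.3.3) in 1 fit of all 12 libraries, after filterByExpr (minimum count 10, minimum total 15; 19492 genes), with Benjamini-Hochberg adjustment over all genes and a threshold of 0.05. All 6 members passed the filter. The test was tried on simulated data. Alternatives were RLE scaling, no filter, DESeq2 1.42.0, limma-voom 3.58.1, fits of the compared groups alone, a replicate block, the 7 libraries with Fabp4 up to 1 CPM, a choroid score and leaving out each library. Correlations used log2 CPM with a prior count of 2 and two-sided tests of 100000 permutations (scipy 1.17.1); they were to be adjusted over the 15 pairs and are given adjusted over all 735 relations instead. Permutation tests treat libraries as independent, although groups can share mice. Intervals from the fit cover the spread between libraries; reads are not independent molecules.

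The members and lists were chosen with earlier results of these data known. Named genes are the 6 members, up to 4 genes per list with the highest TPM, the 3 genes most like each member, and, chosen after their values were seen, the list genes with a high r to a member and those said to be.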

Additional observations from a re-analysis of the deposited data

How the results depend on the processing

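None of the 6 genes was called in any comparison under any alternative. Of 834 alternative values of the 42 fold changes, 44 changed sign, 37 of them on leaving out 1 library; the cause was not tested. With the choroid score, log2 differences turned to 0.02 for Amigo2 and -0.09 for Cacng5 (STET_S200 against Control), 0.27 for Map3k15 (STET_S200 against STET), and -0.14 for Cacng5 and 0.15 for Map3k15 (STET_S200 against STET_S100). In the 7 libraries without Fabp4 they turned to -0.02 for Pcp4 (STET_S200 against STET_S100) and -0.01 for Amigo2 (mean of the stimulated groups).

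Leaving out 1 library at a time gave these ranges. For STET against Control they were -0.08 to 0.20 (Cacng5) and -0.15 to 0.07 (Bok). For STET_S100 against Control, Cacng5 ran from -0.10 to 0.17. For STET_S200 against Control they were -0.22 to 0.04 (Amigo2), -0.10 to 0.18 (Cacng5) and -0.14 to 0.07 (Bok). For STET_S100 against STET they were -0.03 to 0.10 (Rgs14) and -0.12 to 0.04 (Cacng5). For STET_S200 against STET they were -0.09 to 0.34 (Amigo2), -0.01 to 0.07 (Rgs14), -0.11 to 0.07 (Cacng5) and -0.13 to 0.04 (Map3k15). For STET_S200 against STET_S100 they were -0.06 to 0.06 (Rgs14), -0.07 to 0.25 (Pcp4) and -0.06 to 0.09 (Cacng5). For the mean of the stimulated groups they were -0.10 to 0.16 (Amigo2), -0.09 to 0.18 (Cacng5) and -0.05 to 0.16 (Bok). The same range was 0.26 to 0.47 for Map3k15 and -0.59 to -0.41 for Pcp4, without a change of sign.

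The count of all genes called, 0 in each comparison, rose with no low-count filter to 16 (STET), 42 (STET_S100) and 69 (STET_S200) against Control, 22 and 34 (STET_S100 and STET_S200 against STET), 98 (STET_S200 against STET_S100) and 52 (mean). DESeq2 gave 4 (STET_S200 against Control), 1, 15 and 5 for the pairs of stimulated groups in the same order, and 5 (mean). Fitting only the compared groups gave 1 (STET_S100 against Control), and the 7 libraries gave 4 (mean). Leaving out 1 library gave 0 to 1 (STET_S100 against Control), 0 to 2 (STET_S200 against Control), 0 to 1 (STET_S100 against STET), 0 to 8 (STET_S200 against STET_S100) and 0 to 1 (mean). The highest of these came without STET_S200 1, STET_S200 3, Control 3, STET_S100 3 and STET_S200 3, in that order. The median r of the 15 pairs, 0.03, ranged from -0.05 to 0.21 with 1 library left out.

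With the replicate number as a block, 0 of the 6 genes were called, with Map3k15 at 0.38 ± 0.14 (mean) and Pcp4 at -0.72 ± 0.25 (STET). The labels do not say that equal numbers mark the same mice, so the numbers were not taken to pair the libraries. Of 18 same-numbered pairs, 7 had a correlation of deviations over 0.1, with a range of -0.285 to 0.33. Between Control and STET, same-numbered pairs were at 0.127 to 0.231 and the others at -0.193 to -0.009. STET_S100 1, in contrast, was at -0.285 to -0.221 with the other libraries numbered 1. Whether equal numbers mark shared mice was not tested. Of the 6 genes, Pcp4 had the fewest reads, 28 to 90 a library, and so the largest counting noise. The part of the exons shared with Igsf5 in this low count was not tested.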
